A study of Mus musculus with 20 samples.

Results

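The genes described here are Hif1a and Epas1, which encode the oxygen-regulated subunits HIF-1α and HIF-2α, together with Arnt, Vhl, Egln1, Egln2, Egln3 and Bnip3. Every probe that carried the symbol of any of these 8 genes in the array annotation was taken, which gave 17 of the 39429 probes of an array holding 30342 gene names. Of these 17 probes, 16 were among the 22264 probes tested. A probe was tested when it was well above the local background on both arrays of at least 1 group, and the remaining member, the Arnt probe A_55_P2120812, was not well above background on any of the 20 arrays.

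CD4 T cell subsets were sorted from B6.Cg-Foxp3<tm1Mal> mice, a strain in which EGFP reports Foxp3 and which all groups shared, with females and males aged 8 to 14 weeks combined in pools of 8 to 15 animals per sort. From peripheral lymph nodes (pLN) of mice immunised subcutaneously with keyhole limpet hemocyanin (KLH) in alum, naive T cells (GFP-PD1loGL7-), Treg (GFP+PD1loGL7-), follicular helper cells (TFH, GFP-PD1hiGL7+) and follicular regulatory cells (TFR, GFP+PD1hi, GL7+ and GL7- together) were obtained on d12 post immunisation (p.i.) with 2 arrays per group and on d25 p.i. with 1 array per group. From Peyer's patches (PP), for which the sample labels give no immunisation or day, Treg, TFR and TFH were sorted by the same gates and GL7- PD1hi TFH took the place of naive cells, with 2 arrays in each of the 4 groups. Each array was 1 sort from 1 pool and the submitters call the arrays of a group independent experiments. The 2 arrays of a group lay on different slides and came from 50 and 40 ng of RNA. The p-values therefore measure the spread between pools of mice, slides and RNA inputs together. Further arrays of the pLN groups that the submitters mention were not analysed here.

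In oxygenated cells the prolyl hydroxylases encoded by Egln1, Egln2 and Egln3 mark HIF-1α and HIF-2α for recognition by the product of Vhl, the substrate receptor of an E3 ubiquitin ligase, and both subunits are degraded. In hypoxia, or when transcription of the subunits outruns this degradation, they pair with the constitutive partner encoded by Arnt and bind hypoxia response elements of genes for glycolysis, angiogenesis and mitochondrial turnover. In T cells HIF-1α is best known for its link to glycolysis, whereas Epas1 is known above all from endothelium, and since HIF activity is set largely at the protein level a transcript level is no reading of it.

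The sequences below show what the probes and promoters of the members with the widest differences look like. For Epas1 the central 30 bases of the 60-base probes are given because its 3 probes did not read alike, and for Hif1a those of the probe followed throughout. The capitals mark 4 copies of CCCT in a row, which in this array design 4 of the 39429 probes (0.0101%) contain at least 4 times.
Epas1 A_51_P250058: aacttcatgaccattactgcattgtcaaat
Epas1 A_55_P2053988: tatctgacatgctcactttattatccatgt
Epas1 A_55_P2077448: tttataagatttccCCCTCCCTCCCTCCCT
Hif1a A_51_P387608: aattgttaagcctggatcatgaagcgttga

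In the mm9 coordinates of the array annotation, A_51_P250058 lies at chr17:87232615-87232674, A_55_P2053988 at chr17:87230587-87230646 and A_55_P2077448 at chr17:87230678-87230737, all within the Epas1 locus. The Hif1a probe A_51_P387608 lies at chr12:75047269-75047329. The second Hif1a probe, A_55_P2149011 at chr12:75033965-75034024, was annotated to a cDNA clone and had no RefSeq transcript.

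Promoter windows of 300 bases, from 250 before to 50 after the annotated start, came from RefSeq (GRCm38.p6) for 7 of the 8 members, Epas1 being the other. They are shown for Hif1a, Egln3 and Bnip3, which besides Epas1 had a probe called among the 12 groups by the limma F test given below. For Bnip3 this was A_55_P2091472 and not its brightest probe. The capitals mark the letters of the hypoxia response element core, searched as ACGTG and GCGTG and, on the other strand, as CACGT and CACGC, with CACGTG counted on both strands because the matches overlap.
Hif1a chr12:73907617-73907916 (plus strand): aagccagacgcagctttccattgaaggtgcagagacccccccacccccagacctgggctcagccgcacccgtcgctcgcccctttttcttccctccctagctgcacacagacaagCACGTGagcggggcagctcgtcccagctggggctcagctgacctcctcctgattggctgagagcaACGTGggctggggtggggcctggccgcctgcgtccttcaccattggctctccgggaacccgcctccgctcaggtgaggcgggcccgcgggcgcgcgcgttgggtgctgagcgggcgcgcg
Egln3 chr12:54203825-54204124 (minus strand): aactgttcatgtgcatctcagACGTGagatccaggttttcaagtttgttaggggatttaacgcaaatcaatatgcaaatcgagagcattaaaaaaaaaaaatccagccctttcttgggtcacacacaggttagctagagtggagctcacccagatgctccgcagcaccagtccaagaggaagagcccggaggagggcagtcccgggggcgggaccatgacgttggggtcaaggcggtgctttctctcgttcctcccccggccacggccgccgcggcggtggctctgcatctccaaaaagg
Bnip3 chr7:138909457-138909756 (minus strand): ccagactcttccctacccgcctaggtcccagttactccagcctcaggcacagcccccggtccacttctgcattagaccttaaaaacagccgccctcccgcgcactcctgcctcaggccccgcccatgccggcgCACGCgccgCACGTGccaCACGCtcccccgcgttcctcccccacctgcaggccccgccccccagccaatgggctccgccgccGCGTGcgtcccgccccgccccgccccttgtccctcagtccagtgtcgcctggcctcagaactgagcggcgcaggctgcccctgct

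The Hif1a window held 3 matches to ACGTG, at positions -135, -134 and -70 relative to the start. The Egln3 window held 1 match to ACGTG, at -229. The Bnip3 window held 2 matches to ACGTG and 3 to GCGTG. Among the others, Egln1 had 2 matches, Arnt 1, the 2 Egln2 windows 1 and 6, and Vhl 0. Of all 32851 RefSeq promoters of this length, 19.6% held ACGTG, 32.4% held GCGTG and 43.8% held either, so these matches describe the letters of the windows and nothing more.

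The defining markers of the subsets followed the labels. Foxp3 read 13409 to 35129 on the Treg and TFR arrays and at most 192 on the naive and TFH arrays, and all 7 CD4 T cell markers were well above background on every array. The summed intensity of 5 follicular markers (Bcl6, Cxcr5, Pdcd1, Icos, Il21) was 150744 and 139451 in pLN TFR against 469974 and 392930 in PP TFR and 479880 and 296693 in pLN TFH, so the pLN TFR sort was intermediate. The epithelial marker Krt8 moved with the slide, and B cell markers moved with the slide and, on slide 4, with the sort. Slide 4 holds the first PP replicate of each group. There the summed B cell markers were 168651 in TFR, 112893 in Treg, 41572 in TFH GL7+ and 24242 in TFH GL7-. The first PP TFR array thus had the highest sum of all arrays. These markers summed to 6891 to 16547 on slide 5, with the second PP replicates, and to 5786 to 22413 on the pLN arrays. Their part in the PP TFR results was not tested. Krt8, a keratin of gut epithelium, read 927 to 2407 on slide 4 and at most 72 elsewhere. The sums of all 9 epithelial markers overlapped, at 8901 to 17638 on slide 4, 6586 to 14527 on slide 5 and 3963 to 10749 on the pLN arrays. The 8 myeloid markers moved with the sort in pLN, where they summed to 10959 and 8468 in TFH, 5461 and 4224 in TFR, 2254 and 2584 in Treg and 2283 and 3195 in naive cells on d12. In PP they summed to 3899 in TFH GL7+, 3256 in TFR and 1037 in Treg on slide 5. On slide 4 they summed to 7827 in TFH GL7+, 12377 in TFR and 8837 in Treg, higher and in another order. Cd68 made up 5499 and 3638 of the pLN TFH sums, and Cd14 was at most 44 on every array. PP and pLN were never hybridised on the same slide, so tissue and slide cannot be told apart, and results that involve PP are given below with and without slide 4. In sorted bulk RNA, fewer cells that express a gene and less of its RNA per cell cannot be told apart either.

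Hif1a, the HIF-1α gene, was high in every TFH sort and in PP TFR, and low in naive cells and Treg. Its probe A_51_P387608 gave normalised intensities of 2837 and 2675 in pLN naive cells and of 29827 and 19955 in pLN TFH on d12. Treg read 4556 and 3832 in pLN and 5781 and 8977 in PP. The naive and TFH arrays were thus far apart, and no Treg array reached the lowest TFH array. The summed myeloid markers given above were likewise highest in pLN TFH and next in TFR, but were not higher in Treg than in naive cells. Their part in the Hif1a signal was not tested.

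TFR were where the tissues separated. The pLN TFR arrays read 6044 and 7764 on d12, above both pLN Treg arrays and below both TFH arrays. The PP TFR arrays read 35303 and 35903, the highest of all groups. PP TFH read 30419 and 29650 when GL7+ and 23027 and 23709 when GL7-, so that PP TFR lay above PP TFH while pLN TFR lay far below pLN TFH. On d25, with 1 array per group, naive cells read 2818, Treg 3302, TFR 10651 and TFH 24970, in the same order.

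**Figure D1:**
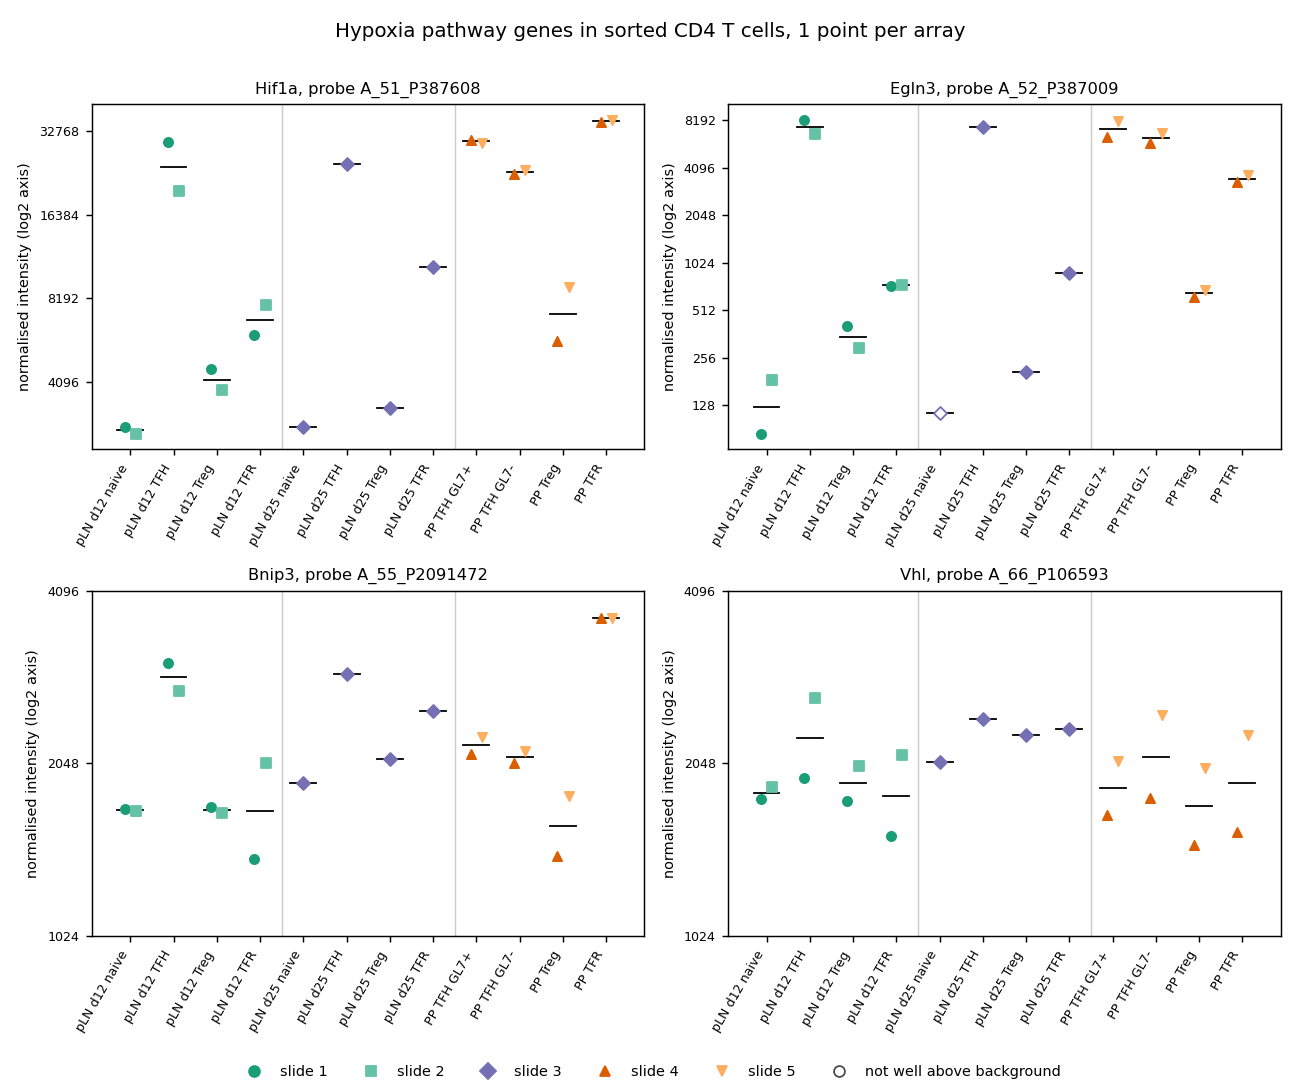
Normalised intensity (log axis) of Hif1a, Egln3, Bnip3 (A_55_P2091472) and Vhl on each of the 20 arrays, by sort, with 1 point per array, colours and shapes for the 5 slides, a line at each group mean and an open point where not well above background. The lowest Hif1a value on a TFH or PP TFR array was 19955 and the highest on any other array 10651, whereas Vhl stayed between 1477 and 2664 throughout.

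By limma over all 20 arrays, with Benjamini-Hochberg adjustment over the 22264 tested probes and a call at an adjusted p under 0.05 and a log2 difference of at least 1, Hif1a was 8.86-fold higher in pLN TFH than in naive cells (log2 difference 3.15, SE 0.25, adjusted p = 1.75e-05). The difference was 3.39 within slide 1 and 2.90 within slide 2. In PP, TFH exceeded Treg 4.17-fold (2.06, SE 0.25, limma adjusted p = 0.000382) and TFR exceeded Treg 4.94-fold (2.31, SE 0.25, adjusted p = 0.000264). Without slide 4 the TFR call stayed and the TFH difference of 1.72 no longer passed (adjusted p = 0.0538).

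In pLN the corresponding step from Treg to TFR was smaller. It came to 0.71 on the log2 scale (SE 0.25, limma adjusted p = 0.101) and was not called, with 0.41 on slide 1 and 1.02 on slide 2. pLN TFR remained 3.56-fold below pLN TFH (-1.83, SE 0.25, adjusted p = 0.00167). PP TFR and PP TFH GL7+ did not differ detectably, at 0.25 with a 95% interval of -0.31 to 0.80. Between tissues, TFR differed 5.20-fold in favour of PP (2.38, SE 0.25, limma adjusted p = 0.000421), a call kept under all 13 alternatives that could be computed for it, with differences from 2.03 to 2.56. Neither Treg (0.79, adjusted p = 0.158) nor TFH (0.30, adjusted p = 0.589) was called between tissues. Fitting the compared groups alone, with their few residual degrees of freedom, ended the calls between TFR and TFH in pLN and between TFR or TFH and Treg in PP at adjusted p of 0.139, 0.0848 and 0.0611.

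The other Hif1a probe, A_55_P2149011, was dim and passed the background test on 8 arrays. In pLN TFH it read 200 on the first array and 75, not well above background, on the second. PP TFH GL7+ read 136 and 191, PP TFR 119 and 181, and both naive arrays were not well above background. It entered the tested set only through PP TFH and PP TFR, where it was high, and so gives no separate support. It showed at least 1.99-fold more in pLN TFH than in naive cells and at least 2.42-fold more in PP than in pLN TFR. Its calls between TFH or TFR and Treg in PP (1.83 and 1.69) were each lost under 8 of 14 alternatives, the removal of slide 4 among them.

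Over the 12 group means and 17321 genes, each read by its brightest tested probe, the patterns closest to Hif1a by Pearson's r were those of Serinc5 (0.995), a serine incorporator, Gm19958 (0.989), Sh2d1a (0.986), which encodes the adaptor SAP of follicular helper cells, Slc43a2 (0.984), an amino acid transporter, and Gna13 (0.982), a G protein subunit. These r share arrays and slides and are descriptions. Without slide 4, 4 of these 5 genes were again among the closest 5, Naa35 replacing Gna13.

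Epas1, the HIF-2α gene, was read by 3 probes that did not give the same picture. A_51_P250058, well above background on all 20 arrays, was low in the pLN follicular and regulatory sorts and high in PP. It read 4396 and 5642 in pLN naive cells, 976 and 2303 in pLN TFH, 704 and 915 in pLN Treg and 439 and 640 in pLN TFR. In PP it read 9421 and 9542 in Treg, 6499 and 14627 in TFH GL7+, 4759 and 9301 in TFH GL7- and 21486 and 56756 in TFR. Both PP TFR arrays lay above every other array, and both pLN TFR arrays lay below every other pLN array of d12. On d25 it read 4474 in naive cells, 2140 in TFH, 633 in Treg and 496 in TFR.

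A_55_P2053988 was dimmer and also had PP TFR highest and pLN Treg and TFR lowest. PP TFR read 857 and 1696, PP Treg 317 and 251, PP TFH GL7+ 214 and 371 and PP TFH GL7- 189 and 286. In pLN only the first naive array, at 86, was well above background, and the Treg and TFR arrays lay at the floor of 20.

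A_55_P2077448, the probe with the CCCT repeat printed above and the brightest of the 3, did not share this order. It read 26608 and 14114 in pLN naive cells, 17523 and 8817 in pLN TFH, 14599 and 8569 in pLN TFR and 47069 and 15199 in PP TFR. On this probe the first replicate exceeded the second in all 8 groups of 2 arrays, the first replicates being those on slides 1 and 4. The probes thus disagree on Epas1, and its differences are given by probe.

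**Figure D2:**
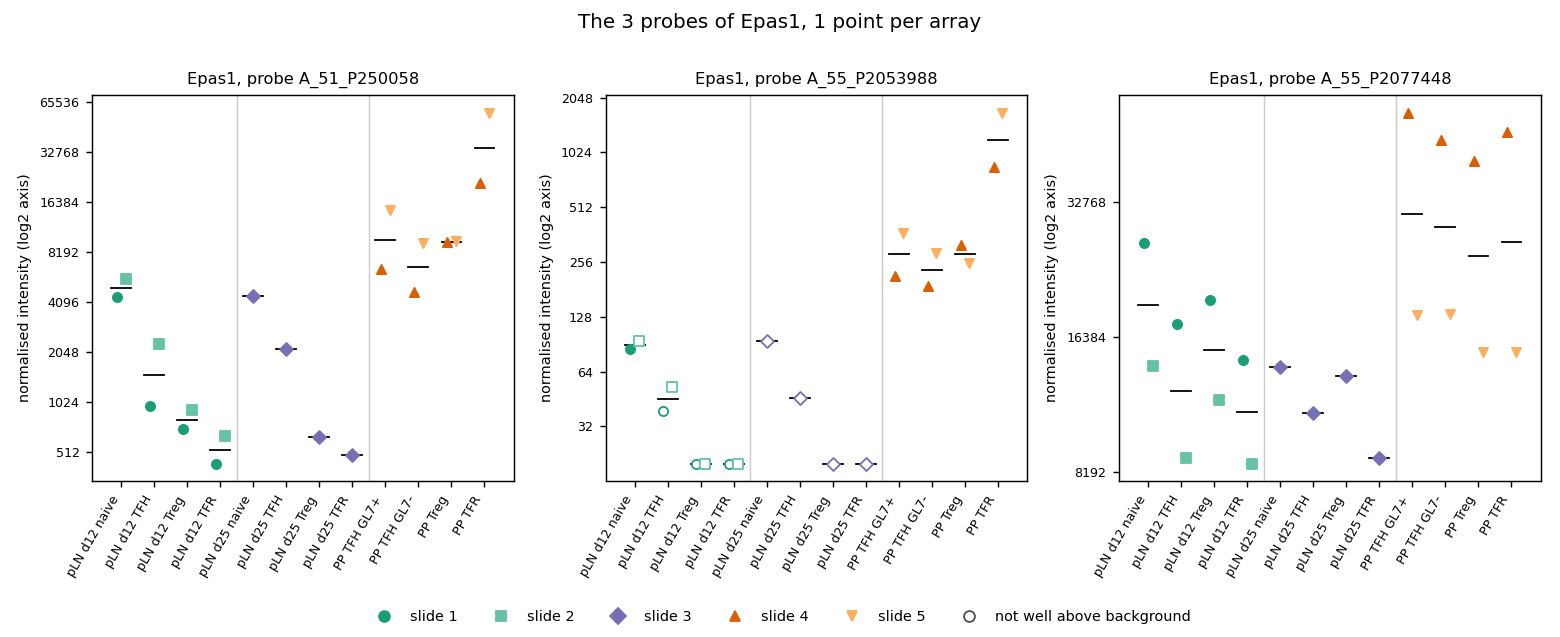
Normalised intensity (log axis) of the 3 Epas1 probes on each of the 20 arrays, by sort, with colours and shapes for the slides, a line at each group mean, filled points well above background and open points not. In A_51_P250058 and A_55_P2053988 the PP TFR arrays (21486 and 56756, 857 and 1696) stand above all others, and in A_55_P2077448 the values of the 2 replicates of a group lie apart (47069 and 15199 in PP TFR).

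The widest Epas1 difference was between the TFR of both tissues. A_51_P250058 was 65.9-fold higher in PP than in pLN TFR (log2 difference 6.04, SE 0.57, limma adjusted p = 0.000251), and the call held under all 13 alternatives, with differences between 5.34 and 6.74. A_55_P2053988 was at least 22.0-fold higher (limma adjusted p = 2.67e-05), and A_55_P2077448 was not called (1.26, 95% interval -0.45 to 2.96, adjusted p = 0.321). A_55_P2053988 entered the tested set only through PP groups, where it was high, so its calls between tissues give no separate support. Treg were 11.8-fold higher in PP on A_51_P250058 (3.56, SE 0.57, adjusted p = 0.0102) and at least 6.65-fold higher on A_55_P2053988 (adjusted p = 0.000837). TFH GL7+ were 6.50-fold higher in PP on the former (2.70, SE 0.57, adjusted p = 0.0252) and at least 5.50-fold higher on the latter (adjusted p = 0.00337). On A_51_P250058 the Treg call was lost without slide 4 (3.57, adjusted p = 0.0600) or without any of the 4 arrays compared, and the TFH call without slide 4 (3.29, adjusted p = 0.0701) or without the first pLN TFH array or either PP TFH GL7+ array.

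Within pLN, Epas1 was lower in Treg than in naive cells, 6.20-fold on A_51_P250058 (-2.63, SE 0.57, limma adjusted p = 0.0293) and at least 2.12-fold on A_55_P2053988 (adjusted p = 0.00610). The former call was lost when any of the 4 arrays was left out, with adjusted p from 0.0969 to 0.225, and the latter without the first Treg array (adjusted p = 0.0551). On A_51_P250058 the lower values in pLN TFH than in naive cells (-1.73) and in pLN TFR than in TFH (-1.50) were not called, and A_55_P2053988 was not well above background on any array of the latter 2 sorts. Within PP, A_55_P2053988 was higher in TFR than in Treg (2.09, SE 0.36, adjusted p = 0.00372) and than in TFH GL7+ (2.10, SE 0.36, adjusted p = 0.00841). A_51_P250058 gave 1.88 and 1.84 for the same comparisons, not called (adjusted p = 0.0627 and 0.150), and called with slide as a block (adjusted p = 0.00261 and 0.00734). The call against TFH was lost without the first PP TFH GL7+ array (1.70, adjusted p = 0.0805) or the second PP TFR array (1.60, adjusted p = 0.0655).

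Since Epas1 is known from endothelium, the 10 endothelial markers were read on the same arrays. Cdh5, Tek, Tie1, Esam, Emcn, Vwf and Cldn5 had no tested probe, and Cdh5, VE-cadherin, was at 20 or 21 on every array. All 10 together, of which Pecam1, Kdr and Eng were tested, summed to 5310 and 3132 in PP TFR, within the 2866 to 6706 of the pLN arrays. The summed B cell markers were 168651 and 14337 and the myeloid ones 12377 and 3256 in PP TFR. Epas1 was higher on the second of these arrays on A_51_P250058 (21486 and 56756) and on A_55_P2053988 (857 and 1696). It was higher on the first, like both sums, on A_55_P2077448 (47069 and 15199). The part of other cell types in the Epas1 signal was not tested further.

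By likeness over the 12 group means, the brightest Epas1 probe, A_55_P2077448, was closest to Sstr5 (r = 0.989), Gfy (0.986), the unnamed probe A_55_P1981992 (0.985), Krtap10-10 (0.985) and Dab1 (0.984), and Sstr5 alone was among the 5 closest without slide 4. For A_51_P250058, chosen for this after its values were seen, the closest were Dnase2a (0.954), an acid nuclease of lysosomes, Mideas (0.941), Smap2 (0.941), Mta3 (0.934) and Pxk (0.922). Mideas and Dnase2a remained among the closest 5 without slide 4.

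The partner and the ligase receptor were flat. Arnt, which encodes the shared partner of both subunits, read 2747 to 6153 on A_55_P2100895 and 454 to 718 on A_55_P2100899 over the 20 arrays, and its remaining probe was at the floor of 20 throughout. Vhl read 1477 to 2664. No Arnt or Vhl probe was called in any of the 17 comparisons, and the widest difference of a group mean from another was 0.69 log2 units for Arnt and 0.51 for Vhl. Over all 12 groups the limma F test gave adjusted p of 0.572 and 0.527 for Arnt and 0.973 for Vhl, which does not show that their levels were equal.

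Of the hydroxylase genes, Egln3 differed widely among the sorts and Egln1 and Egln2 did not. Egln3 encodes PHD3 and is itself a HIF target. Its brighter probe, A_52_P387009, read 85 and 186 in pLN naive cells, 8247 and 6710 in pLN TFH, 405 and 295 in pLN Treg and 730 and 746 in pLN TFR. In PP it read 626 and 691 in Treg, 6380 and 8066 in TFH GL7+, 5867 and 6766 in TFH GL7- and 3309 and 3689 in TFR. On d25 it was not well above background in naive cells and read 209 in Treg, 885 in TFR and 7424 in TFH. The TFH sorts of both tissues overlapped with each other and stood above all other arrays, and PP TFR stood between them and every remaining array.

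Egln3 was 59.3-fold higher in pLN TFH than in naive cells (log2 difference 5.89, SE 0.32, limma adjusted p = 2.18e-06), 10.9-fold higher in PP TFH than in PP Treg (3.45, SE 0.32, adjusted p = 7.09e-05) and 4.73-fold higher in PP than in pLN TFR (2.24, SE 0.32, adjusted p = 0.00181). These 3 calls held under all alternatives. pLN TFR were 10.1-fold below pLN TFH (-3.33, SE 0.32, adjusted p = 0.000228), lost when the compared groups were fitted alone (adjusted p = 0.0649). PP TFR were 5.31-fold above PP Treg (2.41, SE 0.32, adjusted p = 0.000882), with 2.42 and an adjusted p of 0.0813 without slide 4. The smaller excess of Treg over naive cells in pLN (1.46, SE 0.32, adjusted p = 0.0300) was 2.26 on slide 1 and 0.67 on slide 2 and was lost without the first naive array (0.90, adjusted p = 0.169), without the first Treg array (1.23, adjusted p = 0.281) or without the second (1.69, adjusted p = 0.0616). The step from Treg to TFR in pLN came to 1.10 (adjusted p = 0.0541) and passed under 5 alternatives, slide as a block among them (adjusted p = 0.0250). The second Egln3 probe, A_55_P1960916, made the same 6 calls with log2 differences from -3.31 to 5.92.

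Egln1, which encodes PHD2, the main oxygen sensor in most cells, read 310 to 683 on all arrays, and its lowest values were 326 and 310 in pLN TFR on d12. It was 0.87 log2 units higher in PP than in pLN TFR (SE 0.22, limma adjusted p = 0.0226), under the required log2 difference of 1. Egln2, which encodes PHD1, read 11269 to 21569 on A_55_P1960924 and 3232 to 7317 on A_55_P2005330. On the former, pLN TFR (12745 and 11269) lay below pLN TFH (21569 and 15969) with a log2 difference of -0.63 (SE 0.18, limma adjusted p = 0.0693), and no Egln1 or Egln2 probe was called.

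Bnip3, a BH3-only mitophagy receptor and HIF target, was highest in PP TFR. On A_55_P2091472 PP TFR read 3675 and 3679, pLN TFH 3067 and 2736, PP TFH GL7+ 2128 and 2282, pLN TFR 1394 and 2048, Treg 1723 and 1682 in pLN and 1411 and 1800 in PP, and pLN naive cells 1705 and 1692. On d25 it read 1891 in naive cells, 2086 in Treg, 2533 in TFR and 2933 in TFH. Both PP TFR arrays exceeded all others. The brightest Bnip3 probe, A_55_P2091473, also had its highest array in PP TFR (8083 and 5548), but its second PP TFR array lay below the first pLN TFH array (6875). Its remaining probe, A_66_P120736, was well above background on 8 arrays and read 22 to 121.

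On A_55_P2091472 Bnip3 was 2.31-fold higher in PP TFR than in PP Treg (1.21, SE 0.20, limma adjusted p = 0.00285) and 2.18-fold higher in PP than in pLN TFR (1.12, SE 0.20, adjusted p = 0.00460). Without slide 4 both calls were lost, at 1.03 (adjusted p = 0.135) and 1.12 (adjusted p = 0.0508), and without the first pLN TFR array the latter fell under the required size (0.84). A_55_P2091473 gave 0.97 and 0.91, neither called (adjusted p = 0.0558 and 0.0562). On A_55_P2091472 pLN TFH exceeded naive cells by 0.77 (adjusted p = 0.0190) and pLN TFR differed from TFH by -0.78 (adjusted p = 0.0455), both under the required size, the latter past it without the second pLN TFR array (-1.05, adjusted p = 0.0247).

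Set side by side, the 17 comparisons share arrays with each other and are no independent evidence. Over all 12 groups the limma F test called 7 of the 16 tested member probes, both of Hif1a, both of Egln3, 2 of Epas1 and 1 of Bnip3, against 33.6% of all tested probes. The second Hif1a probe and A_55_P2053988 of Epas1 were tested only through groups where they were high, so their calls are no support beyond that choice. In pLN, 4 of 16 were called higher in TFH than in naive cells, as were 9.27% of all tested probes, and the median log2 difference of the 16 was 0.32 against -0.09 over all tested probes. Between pLN Treg and naive cells 2 were higher (Egln3), against 2.86% of all probes, and 2 lower (Epas1), against 0.898%. Between pLN TFR and TFH 4 were lower, the probes of Hif1a and Egln3, against 2.2%, with a median of -0.72 against 0.01. Between pLN TFR and Treg 0 were called in either direction by limma, against 8.35%, although 4 had an unadjusted p under 0.05 and 1 was called with slide as a block.

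In PP the counts were larger for TFR. Against PP Treg 6 of 16 probes were higher in TFR, as were 6.23% of all probes, with a median of 1.09 against -0.05, and 4 were higher in TFH GL7+, against 5.26%. Against PP TFH GL7+ 1 Epas1 probe was higher in TFR, against 2.34%. Between tissues 7 were higher in PP TFR than in pLN TFR, against 5.74% of all probes, with a median of 1.19 against 0.00. TFH had 2 higher in PP, against 2.36%, and Treg 2, against 1.82%, all of Epas1. No member was called lower in PP. These counts include calls of the second Hif1a probe and of A_55_P2053988 of Epas1, tested only through PP groups, where they were high. Those calls are no support beyond that choice. Here and in pLN, probes of the same gene are not independent of each other. Without slide 4 the count for PP TFR against Treg was 2, namely Hif1a and Epas1, that for PP TFH against Treg was 2, both of Egln3, and that for TFR between tissues was 5.

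**Figure D3:**
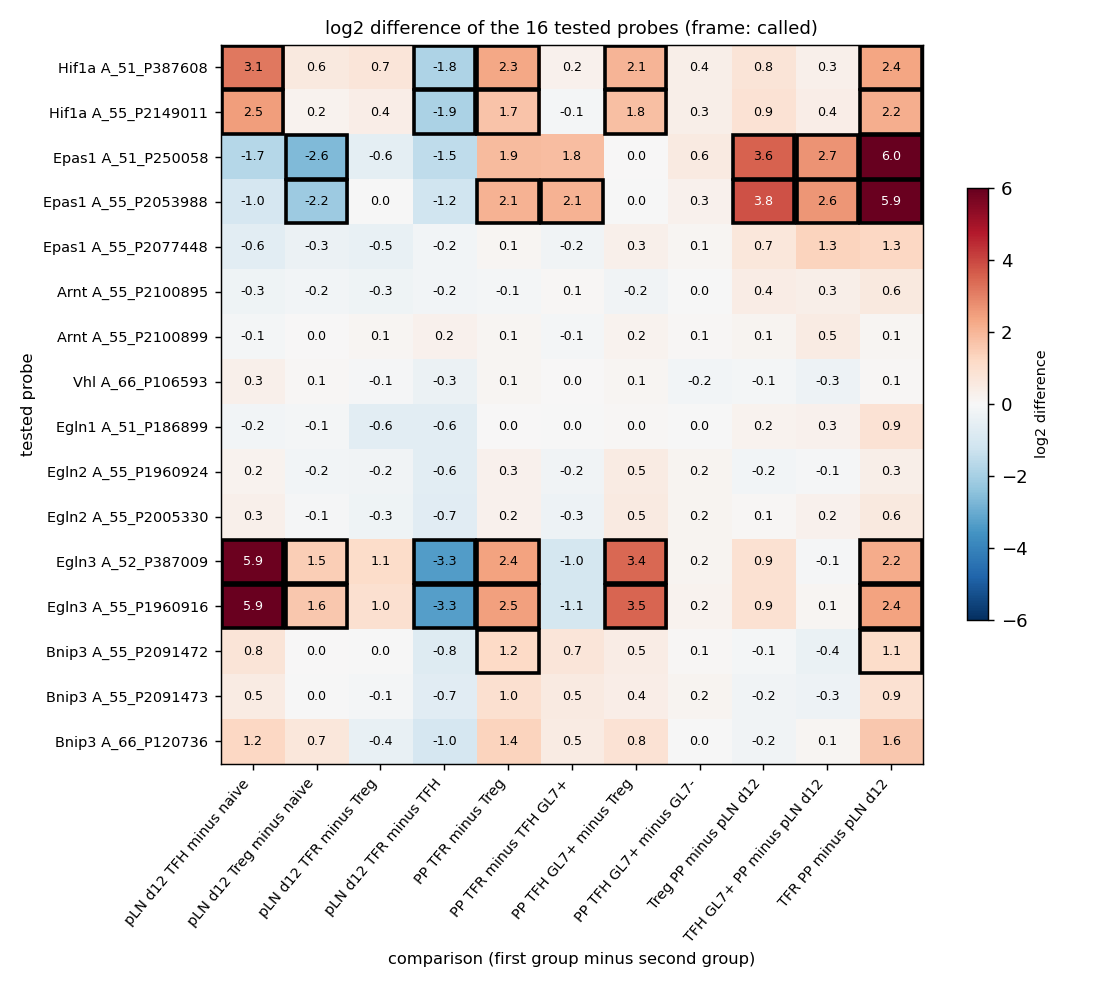
Log2 differences of the 16 tested member probes (vertical) in 11 comparisons (horizontal), with colour for sign and size, the value printed in each cell and a frame around each call, sizes depending on the floor where a group was not well above background. Framed cells lie with Hif1a, Egln3, Epas1 and Bnip3, from -3.33 (Egln3, pLN TFR against TFH) to 6.04 (Epas1, TFR of PP against pLN), and none with Arnt, Vhl, Egln1 or Egln2.

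Whether the distance of TFR from TFH differed between tissues was tested as a difference of differences, PP minus pLN, in which 0.472% of all probes were called higher. Hif1a gave 2.08 (SE 0.35, 95% interval 1.30 to 2.86, limma adjusted p = 0.0325), Epas1 on A_55_P2053988 gave 3.27 (adjusted p = 0.0225) and Bnip3 on A_55_P2091472 gave 1.52 (SE 0.28, adjusted p = 0.0455). No array of pLN TFR or TFH was well above background on this Epas1 probe, so that its size depends on the floor and its pLN part was not measured. Egln3 gave 2.30 (SE 0.45, adjusted p = 0.0664), not called. The Hif1a and Bnip3 calls were each lost under 11 of 18 alternatives and that of Epas1 under 8. Leaving out any array but the second pLN TFH array ended the Hif1a call (1.79 to 2.26, adjusted p from 0.0707 to 0.157), and leaving out any but the second pLN TFR array ended that of Bnip3 (1.24 to 1.60). The Epas1 call ended without either pLN TFH array, either pLN TFR array, the first PP TFH GL7+ array or the second PP TFR array (2.78 to 3.49, adjusted p from 0.0512 to 0.105). Epas1 kept its call without slide 4, whereas Hif1a (2.11, adjusted p = 0.239) and Bnip3 (1.47, adjusted p = 0.372) did not. With slide as a fixed block 6 probes were called. The follicular markers moved likewise, at 469974 and 392930 in PP TFR against 150744 and 139451 in pLN TFR, and their part in these differences was not tested.

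**Figure D4:**
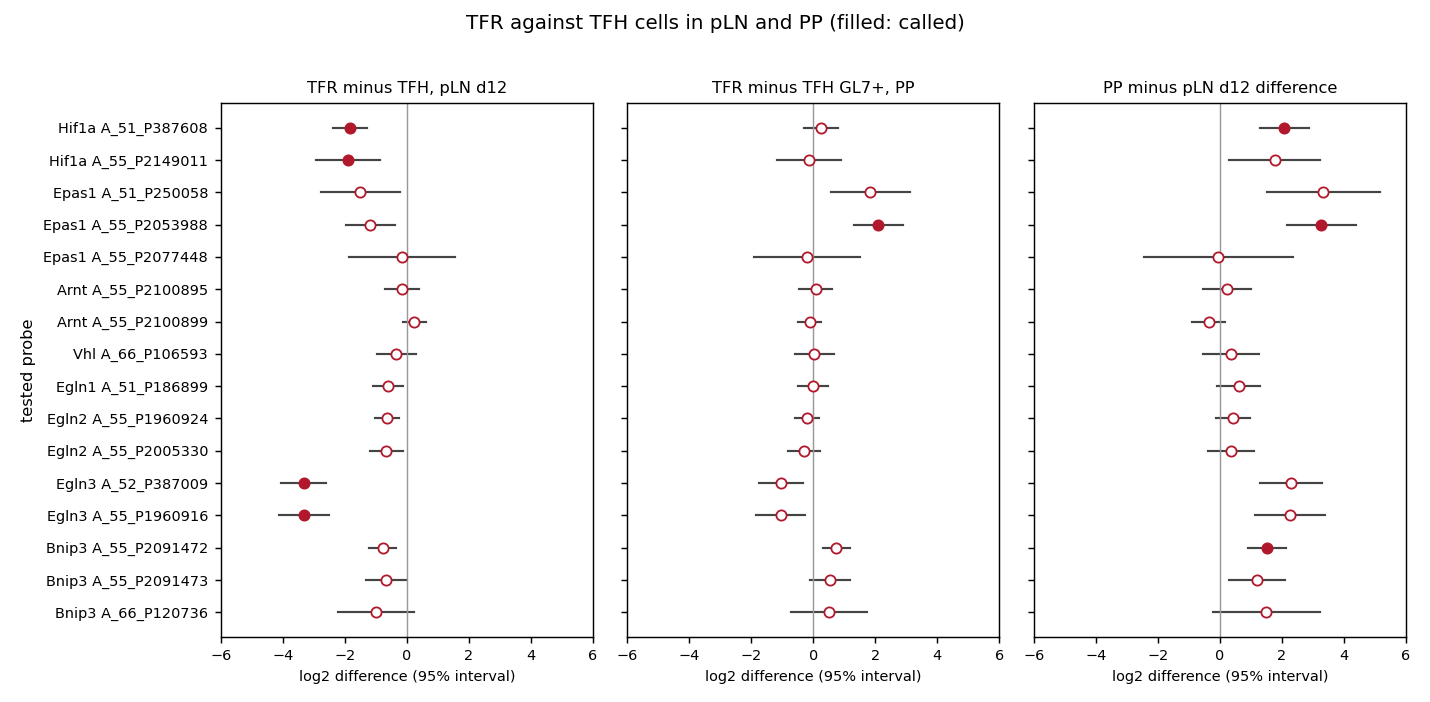
Log2 difference of TFR minus TFH (horizontal) in pLN, in PP and as PP minus pLN, for the 16 tested member probes, with points for estimates, filled where called, and bars for 95% intervals from limma. Epas1 on A_55_P2053988 was not well above background in either pLN sort, so its pLN and difference points depend on the floor. For Hif1a the pLN estimate was -1.83, the PP estimate 0.25 and their difference 2.08 (interval 1.30 to 2.86).

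The same question for the step from Treg to TFR gave no call among the members, where 0.548% of all probes were called, with 8 unadjusted p under 0.05. Hif1a gave 1.59 (SE 0.35, limma adjusted p = 0.0996) and Epas1 on A_51_P250058 gave 2.48 (SE 0.81, adjusted p = 0.329). On A_55_P2053988 all pLN Treg and TFR arrays were at the floor, so no such difference is given. With slide as a fixed block 5 member probes were called, Hif1a among them (adjusted p = 0.0244), and the mean over the tested Epas1 probes, which includes the probe at the floor, was called at 1.71 (adjusted p = 0.0296).

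GL7, a carbohydrate epitope used to mark germinal centre cells, made no detectable difference among PP TFH. No member was called between GL7+ and GL7- cells, where 0.00898% of all probes were, and none had an unadjusted p under 0.05. Hif1a differed by 0.36 (95% interval -0.19 to 0.91) and Epas1 on A_51_P250058 by 0.55 (-0.73 to 1.83), both higher in GL7+ cells. Both intervals included 0. The GL7+ arrays of Hif1a (30419 and 29650) nevertheless lay above its GL7- arrays (23027 and 23709), whereas those of Epas1 overlapped. The methods' t-test on the same values gave 1 member at an unadjusted p under 0.05 and 0 after adjustment.

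Between d25 and d12 p.i. no member was called in naive cells, TFH, Treg or TFR, at 0.00898%, 0.0314%, 0% and 0.00898% of all probes, and 1 unadjusted p under 0.05 occurred, in TFR. The d25 groups had 1 array each, assumed to vary like the others, and day and slide cannot be told apart. Hif1a in TFR differed by 0.64 (95% interval -0.04 to 1.31) and Egln3 in Treg by -0.73.

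The wider pathway was read from 2 lists, 21 HIF partners and regulators, of which 17 had a tested probe, and 47 HIF target genes, of which 42 had. Among the partners, Arnt2, the paralogue of Arnt, was called in 6 comparisons. It was at least 6.21-fold higher in pLN TFH than in naive cells (limma adjusted p = 4.38e-05), higher in PP TFR than in PP Treg (log2 difference 3.14, SE 0.39, adjusted p = 0.000597) and higher in PP than in pLN TFR (2.65, SE 0.39, adjusted p = 0.00204). Without slide 4 the excess of PP over pLN TFR was still called and that of PP TFR over Treg was not. It was also higher in PP TFH than in PP Treg (2.19, adjusted p = 0.00406, not called without slide 4) and lower in pLN TFR than in pLN TFH (-1.60, adjusted p = 0.0395), and was not called between pLN TFR and Treg (1.05, adjusted p = 0.125). In pLN Treg against naive cells it passed the test (adjusted p = 0.0485), but with means of 60.9 and 20 and the naive arrays not well above background no fold is given.

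Ahr, the aryl hydrocarbon receptor and another partner of Arnt, took a different course. In pLN its mean was 183 in naive cells, 2372 in Treg (3.70, SE 0.43, limma adjusted p = 0.000766) and 1078 in TFH (2.56, SE 0.43, adjusted p = 0.00184), and TFR exceeded TFH by 2.65 (SE 0.43, adjusted p = 0.00492) and Treg by 1.51 (adjusted p = 0.0489). In PP it was lower in TFH than in Treg (-2.02, adjusted p = 0.0110) and higher in TFR than in TFH (1.84, adjusted p = 0.0427), both not called without slide 4. Of the 17 partners, 2 were higher and 1 lower in pLN TFH than in naive cells, against 9.27% and 5.48% of all probes, the lower being Siah1a (-1.68, SE 0.34, adjusted p = 0.00533), a ubiquitin ligase that targets prolyl hydroxylases, which was also lower in pLN TFR than in pLN Treg (-1.40, adjusted p = 0.0242). PP TFR had 2 higher partners than PP Treg, against 6.23% of all probes, Arnt2 and Hif3a (1.09, adjusted p = 0.0174), both lost without slide 4. PP TFR had 3 higher partners than pLN TFR, against 5.74% of all probes, where Arnt2 was joined by the coactivator gene Crebbp (1.82, adjusted p = 0.0199) and by Cited2 (1.21, adjusted p = 0.0314), whose product competes with HIF for this coactivator, the last 2 lost without slide 4. The other probes of Crebbp (0.41) and Cited2 (0.48) were not called.

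Of the 42 target genes, 11 were higher and 3 lower in pLN TFH than in naive cells, against 9.27% and 5.48% of all probes, with a list median of 0.38 against -0.09 over all tested probes. Leading were Stc2, a secreted glycoprotein, at least 18.0-fold higher (limma adjusted p = 0.000724), Bhlhe40, a transcriptional repressor (4.23, SE 0.49, adjusted p = 0.000178), Hmox1, heme oxygenase 1 (3.81, SE 0.51, adjusted p = 0.000458), and Hk2, hexokinase 2, at least 9.55-fold higher (adjusted p = 0.000446). The lower genes were Ndrg1 (-2.82), Pdk1, a brake on pyruvate oxidation (-2.15), and Slc2a3, the glucose transporter GLUT3 (-1.10). The called targets thus moved both ways in TFH.

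In pLN Treg 4 targets were higher and 1 lower than in naive cells, against 2.86% and 0.898% of all probes, led by Hk2, at least 7.43-fold higher, Bhlhe40 (2.76), Slc16a3 (1.38) and Slc2a3 (1.18), with Pfkfb4 lower (-1.20). From pLN Treg to TFR 7 were higher and 1 lower, against 5.79% and 2.56% of all probes and with a median of 0.36 against -0.08, although no member was called there. Bhlhe40 (2.38, adjusted p = 0.0109 by limma), Hmox1 (1.80, adjusted p = 0.0475), the lactate exporter gene Slc16a3 (1.77, adjusted p = 0.00190) and Hk2 (1.73, adjusted p = 0.0421) led, and P4ha1, a collagen prolyl hydroxylase subunit, was lower (-1.15). The other probes of Hmox1 (1.32) and P4ha1 were not called. Against pLN TFH, TFR had 3 higher and 2 lower, against 2.81% and 2.2% of all probes. The higher were Ndrg1 (2.52), Car12 (1.78) and Slc2a3 (1.46), and the lower Stc2 (-2.83) and Pfkp (-1.37).

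In PP, 12 targets were higher and 1 lower in TFR than in Treg, against 6.23% and 3.02% of all probes and with a median of 0.59 against -0.05. Stc2 was at least 31.2-fold higher (limma adjusted p = 0.000490), followed by Hmox1 (3.27, adjusted p = 0.00224), Aldoc, an aldolase (3.04, adjusted p = 6.87e-05), and Slc16a3 (2.99, adjusted p = 8.16e-05), whereas Car12, a carbonic anhydrase, was lower (-1.58, adjusted p = 0.0304). Without slide 4 there were 9 higher and 0 lower, and Stc2 and Car12 were among the calls lost. PP TFH against Treg gave 8 higher and 3 lower, against 5.26% and 4.62% of all probes, led by Stc2, at least 25.2-fold higher, Hmox1 (3.72), Adm (2.05) and Aldoc (1.75), with Car12 (-2.35), Ndrg1 (-2.32) and Slc2a3 (-2.05) lower. PP TFR against TFH gave 5 higher and 1 lower, against 2.34% and 1.09%. Slc16a3 (2.47), Vegfa, the angiogenic factor, at least 3.1-fold, Ndrg1 (2.16) and Slc2a3 (1.69) were higher and Adm, adrenomedullin, lower (-1.86). Without slide 4 these counts were 6 higher and 3 lower for TFH against Treg and 4 higher and 0 lower for TFR against TFH, with Stc2 and Adm among the calls lost.

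Between tissues, TFR had 8 targets higher in PP and 1 lower, against 5.74% and 5.39% of all probes, with a median of 0.35 against 0.00, and 6 higher and 1 lower without slide 4. Stc2 (2.76, limma adjusted p = 0.0210), Vegfa, at least 1.63-fold, P4ha1 (1.75, adjusted p = 0.00458) and Pfkl, a phosphofructokinase (1.75, adjusted p = 0.00638), were higher, and Car12 was lower (-2.77, adjusted p = 0.00201). Stc2 and P4ha1 were lost without slide 4, and the other P4ha1 probe (0.99) was not called. TFH had 1 target higher (Adm, 2.11) and 1 lower (Car12, -1.77), near the 2.36% and 2.18% of all probes, both lost without slide 4, and Treg had 0 by limma, with 7 unadjusted p under 0.05. In the difference of differences for TFR against TFH, Vegfa (2.40, SE 0.25, adjusted p = 0.00270) and Aldoc (2.12, SE 0.36, adjusted p = 0.0329) were called, and both were lost without slide 4. Vegfa was not well above background in pLN TFR, PP Treg and PP TFH, so its sizes depend on the floor. Its SE and adjusted p rest partly on these values too, and the part of these groups in the differences was not measured. In the step from Treg to TFR, PP minus pLN, Vegfa (2.17, adjusted p = 0.00473) was the 1 target called, and it too was lost without slide 4. Between GL7+ and GL7- cells 0 targets were called by limma, with 1 unadjusted p under 0.05, and between d25 and d12 0 in each of the 4 sorts, with at most 2. The partners gave 0 calls in these same comparisons and in Treg and TFH between tissues, with at most 3 unadjusted p under 0.05.

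**Figure D5:**
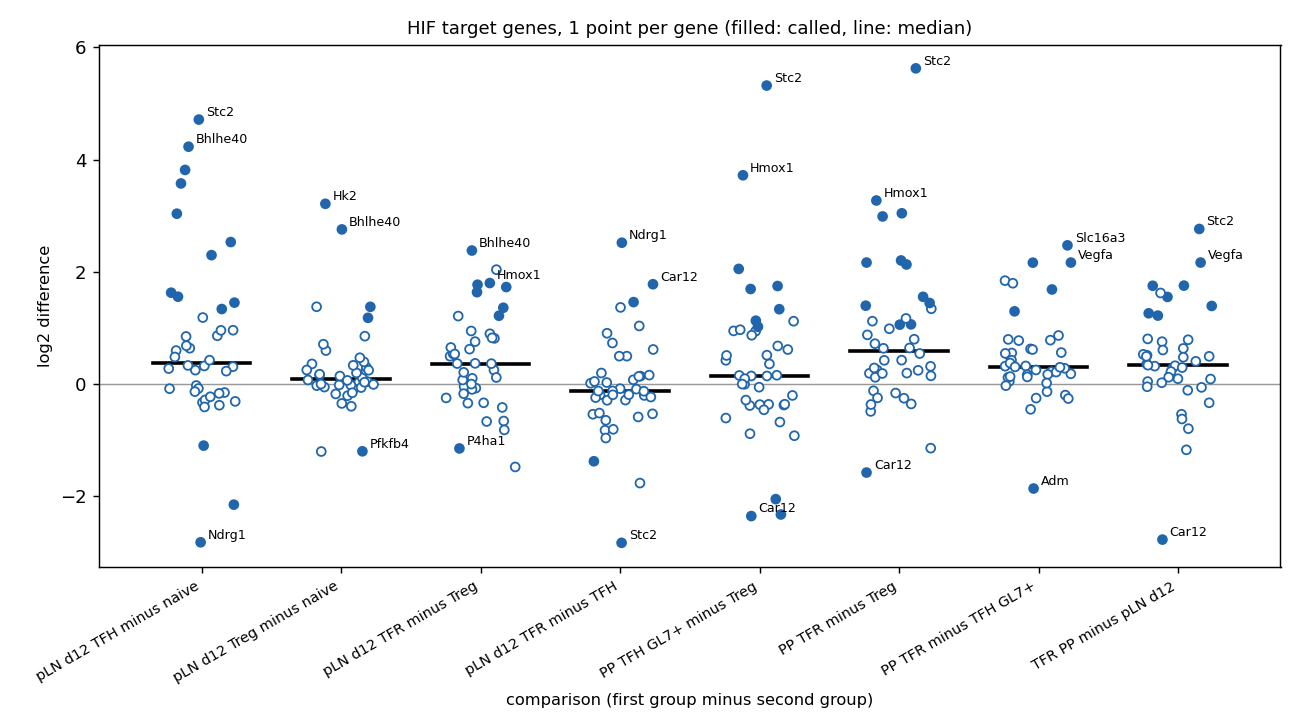
Log2 differences of the 42 tested HIF target genes (vertical) in 8 comparisons (horizontal), with 1 point per gene, filled where called, the genes of the largest calls named and a line at the median. The medians run from -0.12 (pLN TFR against TFH) to 0.59 (PP TFR against Treg), and the highest point is Stc2 in PP TFR against Treg.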

How the data were processed

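RNA from each sort, 40 or 50 ng, was amplified, labelled in 1 colour and hybridised to Agilent arrays that carry each of 39429 probes as 4 features. Per the file headers, the deposited intensity of each feature was background-subtracted and detrended within the array by Agilent Feature Extraction 10.7.3.1, a version given in the submitters' processing notes, and the other deposited values are raw feature intensity, local background and quality marks. Per the study's methods, features marked as outliers, lying outside 1.42 interquartile ranges or with a pixel coefficient of variation above 0.5 were left out (13230 to 19426 per array), the remainder averaged geometrically, and arrays brought to common quantiles, multiplied so that their 75th percentile was 1500 and set to a floor of 20. This was rebuilt from the scanner files, and the median distance to the authors' deposited normalised intensity was 0.0347 to 0.0362 log2 units per array.

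A probe was well above background with at least 3 of 4 such features, as were 43.0% to 58.0% of probes per array, and no probe was saturated on any array. Probes well above background on both arrays of a group were fitted as log2 values with limma 3.58.1 in R 4.3.3, with 1 mean per group over 20 arrays and 12 groups, two-sided moderated tests, Benjamini-Hochberg adjustment over 22264 probes and 95% intervals not adjusted for the number of tests. Where a probe was not well above background on any array of a group, "at least N-fold" sets the brighter mean against the higher of the dim value and the lowest signal well above background on each array.

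Each member but Epas1 and Bnip3 was led by its brightest tested probe, with its other probes beside it. The text put A_51_P250058 first for Epas1 and A_55_P2091472 for Bnip3, which this rule does not give. The brightest probes of Epas1 and Bnip3 had adjusted p of 0.672 and 0.287 in the limma F test over the groups. A_51_P250058 and A_55_P2091472 were called in it, so putting them first favours probes with calls. Each list gene was read by its brightest tested probe, another being given where a named call did not hold on it. Lists were described by the 4 largest calls in each direction, and likeness by the 5 highest r. The members and lists were chosen with earlier results of these data known. Alternatives covered background correction, scaling, feature and probe filters, probe averaging, slide as a block, RNA input, the compared groups alone, removal of slide 4, the authors' normalised values and removal of each array. The alternative probe for the likeness to Epas1 and the counts of lists without slide 4 were added after seeing the data. Replicate numbers follow sample order and in d12 pLN and PP coincide with the slide, which was fitted as a block. Of the 39429 probes, 27508 carried a current RefSeq symbol and 2017 an older one. The number of arrays limits the precision.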

Additional observations from a re-analysis of the deposited data

Results flagged for a closer look

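By limma over all arrays, the distance of TFR from TFH was called different between PP and pLN for Hif1a, Epas1 and Bnip3. The log2 differences were 2.08 for Hif1a, 3.27 for Epas1 on A_55_P2053988 and 1.52 for Bnip3 on A_55_P2091472. These calls were fragile. With the compared groups fitted alone, no tested probe was called. Each call also ended on removal of a single array, for most of the compared arrays. Without slide 4 the Hif1a and Bnip3 calls were lost and that of Epas1 was kept. In the test over all arrays, both other tested Epas1 probes and the brightest Bnip3 probe were not called. On A_55_P2053988 no array of pLN TFR or TFH was well above background, so that the size depends on the floor. This probe was also tested only through PP groups, where it was high, and the place of TFR relative to TFH in pLN was not measured on it. For Hif1a and Bnip3, TFR lay further towards or above TFH in PP than in pLN, and tissue and slide cannot be told apart.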

How the results depend on the processing

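Of 272 differences (16 probes in 17 comparisons) under 3584 alternative values, 3398 stayed on their side of the call, 112 lost it, 74 gained it and 0 changed sign as called values. Counts of called member probes moved as follows, and calls over all tested probes moved too. With the compared groups alone, all probes also gave 0 calls wherever the members fell to 0. PP TFH against Treg went from 2198 to 750 over all probes. With slide as a random block, all probes went from 122 to 1137 for the step difference and from 136 to 825 for the TFR against TFH difference. The member counts are therefore no result about the members alone. With the compared groups alone, Treg against naive cells in pLN went from 4 to 0, pLN TFR against TFH from 4 to 0, PP TFR against Treg from 6 to 0, PP TFR against TFH from 1 to 0, PP TFH against Treg from 4 to 2, Treg and TFH between tissues from 2 each to 0, and the tissue difference of TFR against TFH from 3 to 0. Without slide 4, PP TFR against Treg and PP TFH against Treg fell to 2, Treg and TFH between tissues to 1 and the TFR against TFH difference to 1. Normexp gave 2 for pLN Treg against naive cells, 3 for PP TFR against TFH and 5 for the TFR against TFH difference. With all probes tested, these were 1 for Treg against naive cells, 1 for TFH between tissues and 0 for the difference. All on-chip features gave 1 for pLN TFR against Treg and 2 for PP TFR against TFH, and 75th percentile scaling gave 1 for the former. Slide as a random block (correlation 0.742) gave 1 for pLN TFR against Treg, 3 for PP TFR against TFH, 1 for TFH between tissues, 6 for the step difference from Treg to TFR and 8 for the TFR against TFH difference, and slide as a fixed block gave 1, 2, 5 and 6 without TFH between tissues, which it could not estimate. RNA input as covariate also gave 1, 2, 5 and 6 for these.

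Leaving out each array, counts ran from 4 to 5 for pLN TFH against naive cells, 0 to 3 for Treg against naive cells, 0 to 0 for pLN TFR against Treg, 3 to 4 for pLN TFR against TFH, 5 to 6 for PP TFR against Treg, 0 to 1 for PP TFR against TFH, 3 to 3 for PP TFH against Treg, 1 to 1 for Treg, 1 to 2 for TFH and 6 to 8 for TFR between tissues, 0 to 0 for the step difference and 0 to 1 for the TFR against TFH difference. Averaging the tested probes of Epas1 turned the sign of its brightest probe for PP TFR against TFH (-0.21 to 1.24) and for the tissue difference (-0.06 to 2.19), the other probes being higher there. The labels give no replicate numbers, and arrays were paired only through the slide, as above. With 2 arrays per group, probes near the floor, such as A_55_P2149011, set only bounds.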
